A study of Mus musculus with 15 samples.

Results

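Genes for nucleases and nucleic acid clearance outside cells, in lysosomes and in the cytosol were followed as a set of 9 genes. They were Dnase1l3, Dnase1, Dnase1l1, Dnase1l2, Dnase2a, Dnase2b, Trex1, Samhd1 and Rnase4. The set is called nucleases below for short, although Samhd1 is included as an enzyme that splits deoxynucleotides. The genes were chosen by name with earlier results of these arrays known, and the high liver value of Dnase1l3 was among those results. Each gene was taken from its probe set annotated to that gene symbol alone, with the highest mean where a gene had several. By that rule 8 of the 9 genes were measured, among 19938 genes measured in all. Rnase4 had no such probe set and is described below only through a probe set that it shares with Ang.

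Endothelial cells lining the small vessels of liver, brain and heart were compared on 15 Affymetrix mouse gene arrays, 5 for each tissue, to find the genes that set each endothelium apart from the others. All mice carried the Tie2-GFP transgene on the FVB background and were 8 to 12 weeks old, and green cells were sorted, so the cells are those in which the Tie2 (Tek) promoter was active. Each liver sample pooled 2 mice, each brain sample 6 mice and each heart sample 4 mice, both sexes equally. The liver digest used dispase without warming (room temperature), the brain digest collagenase and DNase I at 37 °C followed by trypsin, and the heart digest collagenase at 37 °C, so tissue, enzyme, temperature and pool size cannot be told apart.

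DNA released by dying cells is cut by enzymes of the DNase I family in blood and tissue fluid, by DNase II enzymes after uptake into acid lysosomes, and by Trex1 where it strays into the cytosol. Loss of DNASE1L3 or TREX1 in people leads to lupus-like disease or to disease with raised interferon, since DNA that is not cleared is read by Toll-like receptors in endosomes and by the cGAS and STING pathway in the cytosol. The sinusoidal endothelium of the liver is known for taking up debris and colloids from blood through scavenger receptors.

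Promoter windows from RefSeq (mouse assembly GRCm38.p6, 250 bases before to 50 after an annotated start) were found for 8 of the 9 genes, in 12 windows. The windows below are those of Rnase4, whose first start coincides with that of Ang, and of the pair of genes that passed the test for a higher value in brain, Dnase1l2 and Samhd1. Capitals mark the GC box, GGGCGG, written CCGCCC where it lies on the other strand.
Rnase4 and Ang, shared first start, chr14:51090827-51091126, plus strand: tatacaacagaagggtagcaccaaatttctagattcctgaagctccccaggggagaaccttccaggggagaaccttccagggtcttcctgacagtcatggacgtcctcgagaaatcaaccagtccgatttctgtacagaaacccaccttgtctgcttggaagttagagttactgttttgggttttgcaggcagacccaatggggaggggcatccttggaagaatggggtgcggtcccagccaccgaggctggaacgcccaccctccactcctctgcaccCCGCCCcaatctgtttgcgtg
Rnase4, second start, chr14:51095750-51096049, plus strand: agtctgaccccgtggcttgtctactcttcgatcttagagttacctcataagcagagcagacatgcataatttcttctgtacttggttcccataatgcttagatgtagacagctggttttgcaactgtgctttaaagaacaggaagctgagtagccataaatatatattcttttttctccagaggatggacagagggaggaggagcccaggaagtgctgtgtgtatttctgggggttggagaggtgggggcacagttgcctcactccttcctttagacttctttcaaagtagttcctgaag
Dnase1l2, chr17:24443052-24443351, minus strand: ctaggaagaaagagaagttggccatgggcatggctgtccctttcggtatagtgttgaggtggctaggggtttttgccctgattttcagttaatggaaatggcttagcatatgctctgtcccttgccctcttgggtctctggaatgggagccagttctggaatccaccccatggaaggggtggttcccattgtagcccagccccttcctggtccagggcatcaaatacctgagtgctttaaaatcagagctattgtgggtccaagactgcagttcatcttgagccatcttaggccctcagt
Samhd1, chr2:157135047-157135346, minus strand: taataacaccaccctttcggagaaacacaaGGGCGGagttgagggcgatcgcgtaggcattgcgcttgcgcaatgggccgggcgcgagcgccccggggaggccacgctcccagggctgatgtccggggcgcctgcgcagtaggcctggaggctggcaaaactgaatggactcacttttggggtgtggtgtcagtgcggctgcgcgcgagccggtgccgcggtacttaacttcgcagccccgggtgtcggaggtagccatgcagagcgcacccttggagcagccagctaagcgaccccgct

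The shared Rnase4 and Ang window was identical for both genes and held 1 GC box, whereas the second Rnase4 window and the Dnase1l2 window held none. Samhd1 held 1 GC box and 29 CpG pairs, Dnase1l2 held 1 CpG pair, and the Rnase4 windows held 8 and 2, beside a median of 7 over all 32817 windows of this length. A GC box occurred in 35.6% of all windows. TATAAA on either strand occurred in 13.6% of all windows and in none of the 4 windows printed. The interferon-type motif GAAANNGAAA on either strand occurred in 3.43% of all windows and in none of the 12 member windows. These are matches of letters only, and a window without a match says nothing about the binding of a factor.

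The 3 endothelia were set beside marker genes. The markers were chosen with earlier results of these arrays known, so their counts are no independent check of the labels. All 10 sinusoidal markers were enriched in liver, all 8 brain endothelial markers in brain and all 8 heart endothelial markers in heart, where enriched means higher than in both other tissues with adjusted p under 0.05 and a log2 difference of at least 1 in both. The mean over 20 pan-endothelial genes lay between 10.1 and 10.6 on the log2 scale on every array. Markers of other cells were also present. The mean of 14 Kupffer cell and macrophage markers was 7.94, 5.91, 8.45, 8.12 and 5.58 on liver arrays 1 to 5, against 5.16 to 5.35 in brain and 5.14 to 5.49 in heart. Liver arrays 1, 3 and 4 therefore stood apart from liver arrays 2 and 5, and each list of related genes below is also given without them. Of these markers, 12 of 14 were higher in liver than in brain and 13 of 14 higher in liver than in heart. Among all genes, 14% were higher and 11.1% lower in liver than in brain, and 16.3% and 11.5% in liver than in heart. With 2 and 5 as the only liver arrays, 5 of the 14 stayed higher than in brain and 4 stayed higher than in heart. Macrophage markers were thus still raised in that setting. The mean of 11 hepatocyte markers was 6.93 to 7.46 in liver, 5.87 to 6.00 in brain and 5.13 to 5.21 in heart. Of these, 9 were higher and 1 lower in liver than in brain, and 10 were higher and 0 lower than in heart. The lower one was Ttr, which without liver arrays 1, 3 and 4 differed by -3.41 between liver and brain and 3.75 between liver and heart. The mean of 10 cardiomyocyte markers was 5.57 to 5.88 in liver, 5.58 to 5.88 in brain and 8.15 to 9.94 in heart. Fibroblast markers were lower in liver than in heart in 7 of 7 genes, with means of 5.20 to 5.96 in liver, 5.24 to 5.99 in brain and 6.42 to 7.94 in heart. Pericyte and smooth muscle markers were lower in liver than in heart in 6 of 9, with means of 6.16 to 6.46 in liver, 6.27 to 7.83 in brain and 6.65 to 8.04 in heart. The 10 dendritic cell markers averaged 5.73 to 5.83 in liver, 5.17 to 5.45 in brain and 5.57 to 5.74 in heart. Of these, 4 were higher and 1 lower in liver than in brain, and 3 were higher and 0 lower than in heart. Without liver arrays 1, 3 and 4, 2 of these calls were kept in each comparison. In that setting Clec9a was higher in liver by 3.18 than in brain and 1.09 than in heart. Means were at or under the floor of 5.64 described below for 5 of the 10 in liver, 8 in brain and 7 in heart. Fewer cells of a type and less RNA per cell cannot be told apart in such bulk samples.

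**Figure D1:**
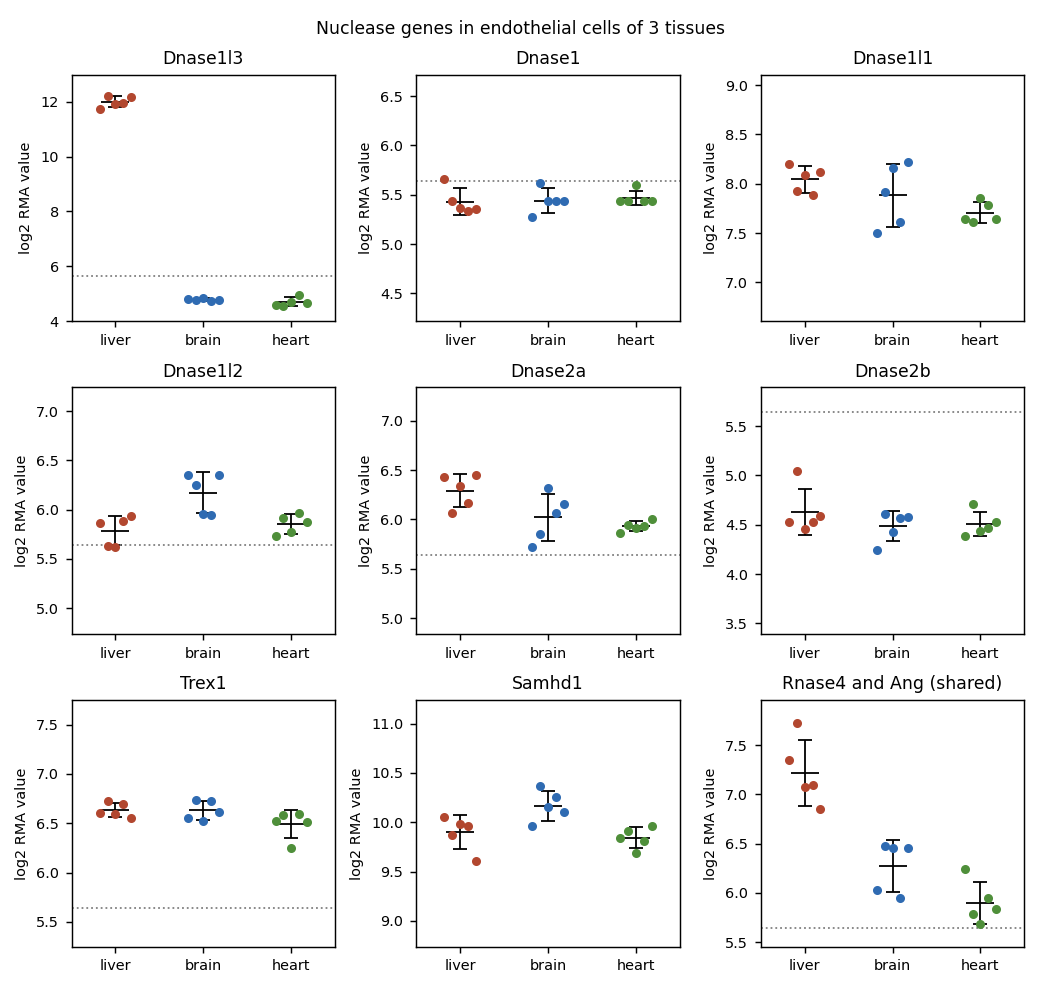
Log2 RMA values of 8 nuclease genes and of the probe set shared by Rnase4 and Ang in liver, brain and heart endothelial samples. Each point is an array, the bars are mean and SD of 5 arrays, the dotted line is the floor of 5.64, and every panel but that of Dnase1l3 spans 2.5 log2 units. Dnase1l3 reads 11.76 to 12.22 in liver and under 5 in brain and heart, and no other panel shows a comparable distance between tissues.

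Dnase1l3, a secreted DNase that cuts DNA wrapped in nucleosomes and in membrane vesicles, was present in liver and at the lower end of the array in the other tissues. Its log2 values were 11.76, 12.22, 11.92, 11.96 and 12.18 on liver arrays 1 to 5, 4.81, 4.78, 4.85, 4.72 and 4.75 on brain arrays 1 to 5, and 4.58, 4.56, 4.71, 4.97 and 4.67 on heart arrays 1 to 5. Every liver array lay far above every brain and heart array, while brain and heart overlapped. The means were 12.01 ± 0.19 in liver, 4.78 ± 0.05 in brain and 4.70 ± 0.16 in heart (SD, n = 5 each). The difference was 7.22 ± 0.10 (SE) between liver and brain, or 149-fold, and 7.31 ± 0.10 between liver and heart, or 159-fold. These values are a description, without a test, because the gene was selected on them. By size the difference ranked 4 of 19938 genes between liver and brain and 2 between liver and heart. Brain and heart, which the choice did not rest on, differed by 0.08 ± 0.10 (limma adjusted p = 0.636, over all genes).

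The brain and heart means of Dnase1l3 lay under 5.64, a floor set at the 95th percentile of the tissue means of 1194 olfactory and vomeronasal receptor genes, which endothelial cells are not known to use. The folds therefore compare liver with values at the array's lower end. Dnase1l3 is known in mouse from macrophages and dendritic cells as well as from liver endothelium. Its highest liver values were on arrays 2 and 5, the arrays lowest in Kupffer markers, and its lowest was on array 1. Arrays 2 and 5 were also the highest of the liver arrays in hepatocyte markers, with means of 7.08 and 7.46, against 7.01, 6.96 and 6.93 on liver arrays 1, 3 and 4. When liver arrays 1, 3 and 4 were left out, the differences were 7.42 from brain and 7.50 from heart. The part of macrophages, dendritic cells or hepatocytes in the liver values was not tested.

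The genes whose profile over the 15 arrays lay nearest to that of Dnase1l3 were found by the root mean square difference after each gene's own mean was removed. They were Clec4g at 0.185, Msr1 at 0.277, Mrc1 at 0.284, Hpgd at 0.351 and Plxnc1 at 0.407 log2 units. This measure is led by the liver step on which Dnase1l3 was selected, so genes with a step of similar size come out nearest. The brain and heart means of all these genes lay under the floor of 5.64. Clec4g, a lectin of sinusoidal endothelium, averaged 12.54 in liver, 5.14 in brain and 5.12 in heart. Mrc1, the mannose receptor, averaged 12.16 in liver, 4.81 in brain and 5.06 in heart. Hpgd, which inactivates prostaglandins, averaged 11.94 in liver, 4.94 in brain and 5.30 in heart. Plxnc1, a semaphorin receptor, averaged 11.68 in liver, 4.71 in brain and 5.24 in heart.

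The 7 other measured members had much smaller differences. Between liver and brain, 0 of 7 were higher and 2 were lower at a limma adjusted p under 0.05, beside 14% of all genes higher and 11.1% lower; at an unadjusted p under 0.05, 1 was higher and 2 were lower. Between liver and heart, 1 was higher and 0 were lower, beside 16.3% and 11.5% of all genes; at an unadjusted p under 0.05, 2 were higher and 0 were lower. Between brain and heart, 2 were higher and 0 were lower, beside 8.29% and 7.11% of all genes, and the counts at an unadjusted p under 0.05 were the same. With so few genes, these counts do not set the nucleases apart from all genes. The median absolute difference of the 7 was 0.16, 0.12 and 0.14 in liver minus brain, liver minus heart and brain minus heart, against 0.14, 0.16 and 0.13 over all genes.

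None of the 7 was enriched or depleted in any tissue. Among all genes, 2.69% were enriched and 1.46% depleted in liver, 1.56% and 0.652% in brain, and 0.908% and 0.311% in heart. The largest absolute difference of any of the 7 was 0.39.

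**Figure D2:**
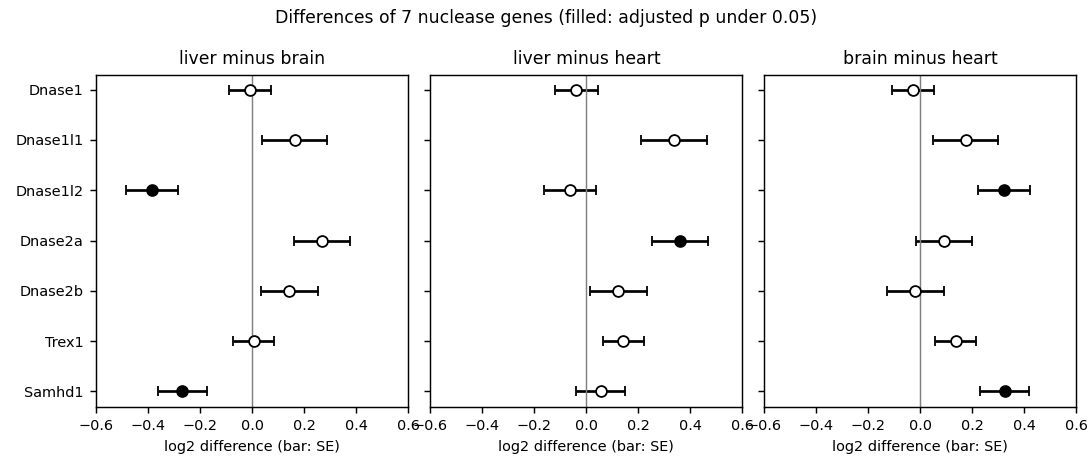
Log2 differences between tissues of the 7 measured nuclease genes other than Dnase1l3, with the SE of the model as bars and filled points at adjusted p under 0.05. All lie between -0.39 and 0.36, and the filled points are Dnase1l2 and Samhd1 in liver minus brain, Dnase2a in liver minus heart, and Dnase1l2 and Samhd1 in brain minus heart.

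Among the other DNase I enzymes, Dnase1, the classical secreted DNase of gut, kidney and salivary gland, had a mean under the floor in every tissue. Its values were 5.66, 5.44, 5.36, 5.33 and 5.36 on liver arrays, 5.27, 5.62, 5.44, 5.43 and 5.44 on brain arrays, and 5.44, 5.44, 5.60, 5.44 and 5.44 on heart arrays. The tissues overlapped, and 7 of the 15 arrays carried one identical value. Among all genes, 19.3% of all genes had at least 3 equal values. Dnase1 differed by -0.01 ± 0.08 between liver and brain (limma adjusted p = 0.961) and by -0.04 ± 0.08 between liver and heart (adjusted p = 0.775). The gene overlaps Trap1 in RefSeq.

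Dnase1l1, a family member anchored at the cell surface and best known from muscle, was well above the floor in all 3 tissues. It read 8.20, 7.92, 8.09, 7.89 and 8.12 on liver arrays, 7.50, 7.92, 8.16, 7.61 and 8.22 on brain arrays, and 7.64, 7.61, 7.86, 7.79 and 7.64 on heart arrays. Every liver array lay above every heart array, by a narrow margin, and brain spanned both. The difference of 0.34 ± 0.13 between liver and heart did not pass the test (limma adjusted p = 0.0549), and it did so in 8 of 26 alternative settings. Among these, the adjusted p was 0.0490 without liver array 4 and 0.0298, 0.0466, 0.0468 and 0.0386 without brain arrays 1, 3, 4 and 5. Liver and brain differed by 0.16 ± 0.13 (adjusted p = 0.424). Dnase1l1 overlaps Taz, Mir7091 and Gm14846 in RefSeq.

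Dnase1l2, which in mouse breaks down nuclear DNA in hair and nails, was highest in brain and close to the floor in liver and heart. It read 5.87, 5.63, 5.62, 5.88 and 5.94 on liver arrays, 6.36, 6.25, 5.96, 5.95 and 6.35 on brain arrays, and 5.73, 5.92, 5.77, 5.97 and 5.88 on heart arrays. All brain arrays lay above all liver arrays by a margin under 0.01, and brain overlapped heart. Liver was lower than brain by 0.39 (log2 difference -0.39 ± 0.10, limma adjusted p = 0.00753), or 0.766-fold, and brain was higher than heart by 0.32 ± 0.10 (adjusted p = 0.0374), or 1.25-fold.

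The brain excess of Dnase1l2 over heart lost its call in 12 of 26 alternatives, among them without brain array 1, 2 or 5 (adjusted p = 0.10, 0.0810 and 0.0984) and without heart array 1, 2, 3 or 5 (adjusted p = 0.0863, 0.0515, 0.0827 and 0.0595). The liver deficit lost its call in 2 of 26, with a difference of -0.39 (adjusted p = 0.0710) without liver arrays 1, 3 and 4 and -0.20 (adjusted p = 0.161) after centring on pan-endothelial genes. Centring each array on the mean of the 20 pan-endothelial genes moved every gene's liver minus brain by 0.18 and brain minus heart by -0.18. Of those 20 genes, 5 were higher and 8 lower in liver than in brain, beside 14% and 11.1% of all genes. In brain, 6 were higher and 4 lower than in heart, beside 8.29% and 7.11%. The shift thus includes tissue differences of the 20 genes themselves, and the centred scale is not a neutral one. Relative to that shift, Dnase1l2 was -0.20 between liver and brain and 0.14 between brain and heart (adjusted p = 0.307), and neither passed the test.

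Of the acid nucleases, Dnase2a, the main DNA-cutting enzyme of lysosomes, was higher in liver than in heart. It read 6.43, 6.07, 6.34, 6.17 and 6.45 on liver arrays, 5.73, 5.85, 6.32, 6.07 and 6.15 on brain arrays, and 5.86, 5.94, 5.91, 5.94 and 6.01 on heart arrays. All liver arrays lay above all heart arrays, and brain overlapped both. The difference was 0.36 ± 0.11 between liver and heart (limma adjusted p = 0.0171), or 1.28-fold, and 0.27 ± 0.11 between liver and brain, which did not pass (adjusted p = 0.0792).

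The Dnase2a call between liver and heart was lost in 3 of 26 alternatives. With 2 and 5 as the only liver arrays, the difference was 0.33 (adjusted p = 0.173), without heart arrays 1 and 3 it was 0.33 (adjusted p = 0.0834), and after pan-endothelial centring it was 0.36 (adjusted p = 0.0695). The Dnase2a values of liver arrays 2 and 5, which were low in Kupffer markers, were 6.07 and 6.45, the lowest and the highest of the 5. The difference between liver and brain passed in 4 of 26 alternatives, including those without liver array 2 (0.33, adjusted p = 0.0366) and without brain array 3 (0.34, adjusted p = 0.0211).

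Dnase2b, a related acid nuclease that clears DNA from mouse lens fibre cells, lay under the floor in every tissue. It ranged from 4.46 to 5.04 in liver, from 4.24 to 4.61 in brain and from 4.39 to 4.71 in heart, with all 3 ranges overlapping. Dnase2b differed by 0.14 ± 0.11 between liver and brain (limma adjusted p = 0.422) and by 0.12 ± 0.11 between liver and heart (adjusted p = 0.451). It overlaps Uox, the urate oxidase gene, in RefSeq.

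In the cytosol, Trex1, an exonuclease that removes stray DNA from its ends, differed little. It read 6.60, 6.73, 6.60, 6.70 and 6.56 on liver arrays, 6.55, 6.74, 6.52, 6.72 and 6.61 on brain arrays, and 6.52, 6.58, 6.25, 6.60 and 6.52 on heart arrays. The ranges overlapped in every pairing. Trex1 differed by 0.01 ± 0.08 between liver and brain (limma adjusted p = 0.977), 0.14 ± 0.08 between liver and heart (adjusted p = 0.208) and 0.14 ± 0.08 between brain and heart (adjusted p = 0.297). These misses do not show equal levels. A readthrough transcript, Atrip-trex1, overlaps it in RefSeq.

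Samhd1, which splits deoxynucleotides and so limits reverse transcription by retroviruses, was highest in brain. It read 10.06, 9.88, 9.98, 9.96 and 9.61 on liver arrays, 9.96, 10.36, 10.15, 10.25 and 10.11 on brain arrays, and 9.84, 9.91, 9.69, 9.81 and 9.96 on heart arrays. All brain arrays lay above all heart arrays by a margin under 0.01, and liver overlapped both. Liver was lower than brain by 0.27 (log2 difference -0.27 ± 0.10, limma adjusted p = 0.0469), or 0.830-fold, and brain was higher than heart by 0.32 ± 0.10 (adjusted p = 0.0265), or 1.25-fold.

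The Samhd1 difference between liver and brain lost its call in 17 of 26 alternatives, with adjusted p up to 0.577. Leaving out 1 array ended it for liver arrays 2, 3, 4 and 5 (adjusted p = 0.0795, 0.0542, 0.0582 and 0.126), for brain arrays 2, 3, 4 and 5 (0.125, 0.0737, 0.102 and 0.0579) and for heart arrays 1, 2, 4 and 5 (0.0538, 0.0551, 0.0575 and 0.0513). On leaving out liver arrays 1, 3 and 4, the difference was -0.42 (adjusted p = 0.0234). The difference between brain and heart lost its call in 7 of 26, including without brain arrays 2 and 4 (adjusted p = 0.0742 and 0.0607) and without heart arrays 3 and 4 (0.0727 and 0.0567). Relative to the pan-endothelial shift, Samhd1 was -0.08 between liver and brain and 0.14 between brain and heart (adjusted p = 0.333), so neither brain excess passed on that scale.

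**Figure D3:**
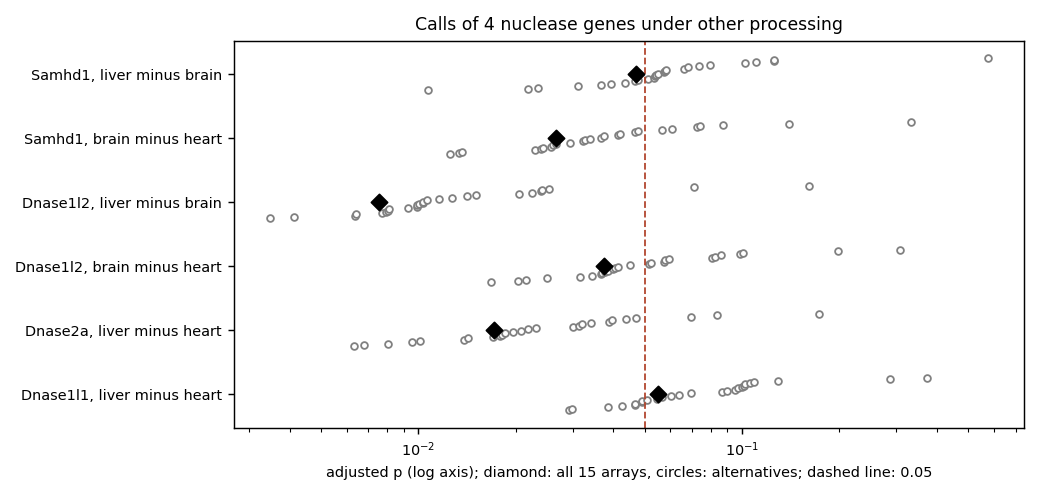
Adjusted p of 6 differences of Samhd1, Dnase1l2, Dnase2a and Dnase1l1 with all 15 arrays (diamonds) and in 26 alternative settings (circles), on a log axis with the threshold of 0.05 dashed. Circles fall on both sides of the line for every one of the 6 differences, 17 of them past it for Samhd1 in liver minus brain and 2 for Dnase1l2 in liver minus brain.

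For RNA, the probe set that Rnase4 shares with Ang was higher in liver. Rnase4 and Ang encode secreted ribonucleases of one family, and they share their first start as shown above, so the probe set cannot say which of them it read. Its values were 7.35, 7.72, 7.08, 7.09 and 6.85 on liver arrays, 6.03, 6.47, 6.46, 5.95 and 6.45 on brain arrays, and 6.24, 5.79, 5.69, 5.95 and 5.84 on heart arrays. Every liver array lay above every brain and heart array, and brain overlapped heart. In a limma fit over all 35556 probe sets the difference was 0.95 ± 0.16 between liver and brain (adjusted p = 0.000576), or 1.93-fold, and 1.32 ± 0.16 between liver and heart (adjusted p = 2.76e-05), or 2.49-fold. Brain and heart differed by 0.37 ± 0.16 (adjusted p = 0.196). Without liver arrays 1, 3 and 4, the Rnase4 and Ang differences were 1.01 (adjusted p = 0.0143) and 1.38 (adjusted p = 0.00228). Rnase4 and Ang are made in quantity by hepatocytes, whose marker mean was higher on every liver array than on any brain or heart array. Within liver, the probe set was lowest on array 5, where that marker mean was highest (7.46). It was highest on array 2, where the marker mean was next highest (7.08). The part of hepatocytes in the differences between tissues was not tested.

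Other secreted and lysosomal ribonucleases showed few calls. Of 13 measured, 1 was higher and 1 lower between liver and brain, 1 was higher and 1 lower between liver and heart, and 0 were called between brain and heart (0 at an unadjusted p under 0.05). The list's median difference was -0.01 between liver and brain and -0.05 between liver and heart, against 0.00 and -0.03 over all genes. Rnase6, an antimicrobial ribonuclease of myeloid cells, ranged from 5.87 to 6.41 in liver, 5.47 to 5.72 in brain and 5.42 to 6.04 in heart. Its brain and heart medians, 5.57 and 5.56, lay under the floor. It was higher in liver than in brain by 0.61 ± 0.12 (limma adjusted p = 0.000982) and than in heart by 0.50 ± 0.12 (adjusted p = 0.00461), and both calls were lost without liver arrays 1, 3 and 4 (0.41 and 0.31, adjusted p = 0.0817 and 0.213). Ang4, an antimicrobial angiogenin of the mouse gut, was lower in liver than in brain by 0.33 (log2 difference -0.33 ± 0.12, adjusted p = 0.0440), and without the same arrays the difference was -0.42 and was not called (adjusted p = 0.0749). Ang4 values lay near the floor, at 5.26 to 5.79 in liver and 5.74 to 6.17 in brain. Rnase13 was lower in liver than in heart (-0.28 ± 0.09, adjusted p = 0.0323, and -0.38, adjusted p = 0.0347, without those arrays) but under the floor in all tissues. With 2 and 5 as the only liver arrays, the Rnase13 difference from heart was the single call among the 13 in liver minus brain and liver minus heart.

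The lysosomal ribonucleases Rnaset2a and Rnaset2b shared 2 probe sets, which read 9.24 to 9.55 and 9.21 to 9.62 in liver, 9.10 to 9.51 and 9.02 to 9.50 in brain, and 9.0 to 9.28 and 8.95 to 9.25 in heart. They were higher in liver than in heart by 0.31 ± 0.09 and 0.34 ± 0.10 (limma adjusted p = 0.0270 and 0.0294, over all probe sets). When liver arrays 1, 3 and 4 were left out, the differences were 0.17 and 0.16 and were not called (adjusted p = 0.484 and 0.534).

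The related genes were read from lists chosen for their roles, with earlier results of these arrays known. Their counts and p-values are therefore no independent test. The counts stand beside the shares of all genes called. Those shares were 14% higher and 11.1% lower in liver than in brain, and 16.3% and 11.5% in liver than in heart. They were 8.29% and 7.11% in brain than in heart. Leaving out liver arrays 1, 3 and 4 lowered the genes called among all genes as well, to 3507 from 5003 in liver minus brain and to 3285 from 5538 in liver minus heart. Of 12 genes that handle and sense nucleic acids in endosomes and lysosomes, 5 were higher and 0 lower in liver than in brain, and 7 were higher and 0 lower in liver than in heart, with 0 lower at an unadjusted p under 0.05 in both. In brain, 1 was higher than in heart. The list's median difference was 0.28 between liver and brain and 0.49 between liver and heart, against 0.00 and -0.03 over all genes. With 2 and 5 as the only liver arrays, 2 of the 5 and 4 of the 7 calls were kept, and 1 gene was lower in liver than in brain. The Kupffer marker level moved with this list, whose mean was 6.48, 6.06, 6.48, 6.38 and 5.93 on liver arrays 1 to 5.

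Unc93b1, which carries nucleic acid-sensing Toll-like receptors to endosomes, ranged from 6.88 to 7.52 in liver, 6.04 to 6.29 in brain and 5.79 to 6.33 in heart. It was higher in liver by 1.10 ± 0.12 than in brain and by 1.07 ± 0.12 than in heart (limma adjusted p = 1.87e-06 and 3.15e-06), and by 0.85 and 0.83 without liver arrays 1, 3 and 4 (adjusted p = 0.000462 and 0.000750). Acp2, a lysosomal acid phosphatase, was higher by 0.75 ± 0.18 than in brain and 1.18 ± 0.18 than in heart (adjusted p = 0.00359 and 5.44e-05), and without those arrays the excess over brain was not called (0.57, adjusted p = 0.147) while that over heart was (1.00, adjusted p = 0.0110).

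Tlr13, which senses bacterial ribosomal RNA, and Pld4, an exonuclease of endosomal DNA and RNA, followed the macrophage markers among liver arrays. Tlr13 read 4.25 to 5.66 in liver, 4.01 to 4.43 in brain and 4.15 to 4.43 in heart, and Pld4 read 4.94 to 6.54 in liver, 4.77 to 5.09 in brain and 4.98 to 5.18 in heart. Both were higher in liver than in brain, by 0.81 ± 0.23 for Tlr13 and 0.76 ± 0.23 for Pld4 (limma adjusted p = 0.0128 and 0.0216). On leaving out liver arrays 1, 3 and 4, the differences were 0.06 and 0.02 (adjusted p = 0.824 and 0.936). The Tlr13 means lay under the floor in all tissues, and the Pld4 means did so in brain and heart. The sizes of these differences are therefore set against the array's lower end.

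Pld3, a relative of Pld4 with the same activity, was higher in liver than in heart by 0.97 ± 0.11 (limma adjusted p = 1.59e-06) and in brain than in heart by 0.72 ± 0.11 (adjusted p = 8.40e-05). Without liver arrays 1, 3 and 4, the excess over heart was 0.96. Acp5, an acid phosphatase of macrophages and osteoclasts, was higher in liver than in heart by 0.94 ± 0.22 (adjusted p = 0.00399), and by 0.22 without those arrays (adjusted p = 0.283). Against brain it differed by 0.29 ± 0.22 (adjusted p = 0.429) with all arrays and by -0.43 (adjusted p = 0.0197) without liver arrays 1, 3 and 4.

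**Figure D4:**
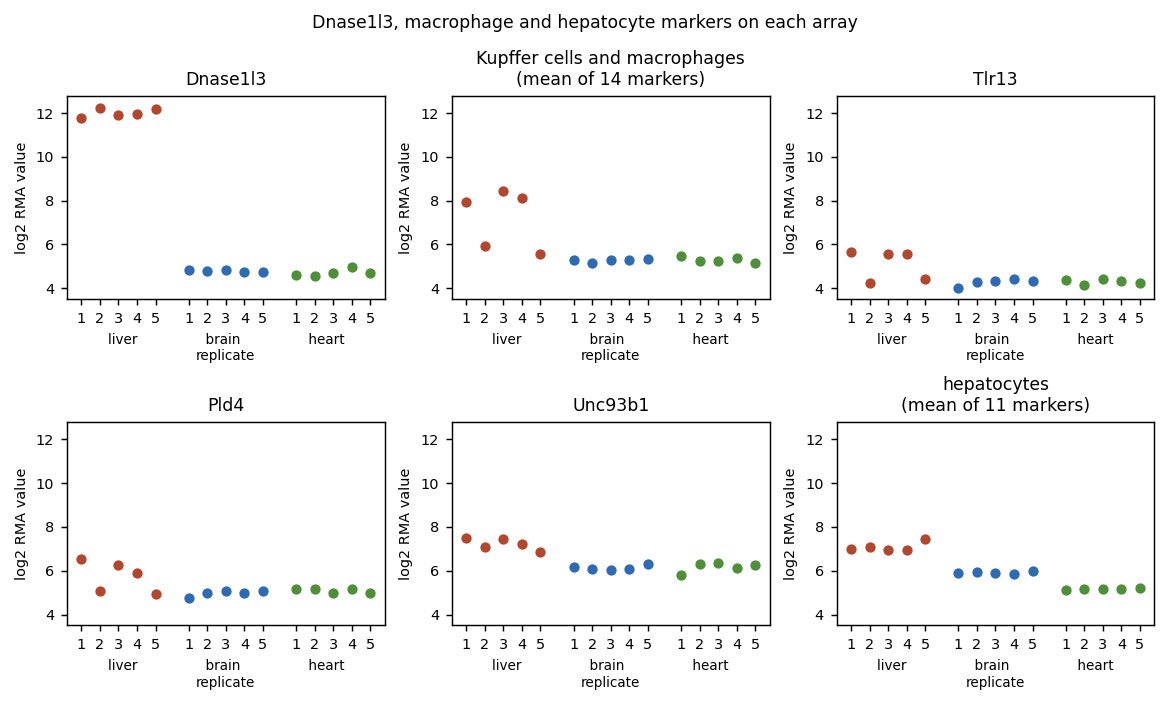
Log2 RMA values on each array for Dnase1l3, the mean of 14 macrophage markers, Tlr13, Pld4, Unc93b1 and the mean of 11 hepatocyte markers. Liver arrays 1, 3 and 4 are high in macrophage markers, Tlr13 and Pld4 and liver arrays 2 and 5 are near brain and heart, whereas Dnase1l3 and Unc93b1 stay above brain and heart on all 5 liver arrays.

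Of 18 measured genes for breakdown and sensing of nucleic acids in the cytosol, 7 were higher and 2 lower in liver than in brain, 6 higher and 1 lower in liver than in heart, and 1 higher and 2 lower in brain than in heart. When liver arrays 1, 3 and 4 were left out, 7 of the 9 calls against brain and 4 of the 7 against heart were kept. Sting1, the adaptor that turns cytosolic DNA into an interferon signal, ranged from 8.12 to 8.67 in liver, 6.16 to 6.74 in brain and 7.72 to 8.90 in heart. Its brain values lay under all others, and it differed by 1.92 ± 0.19 between liver and brain and by -1.54 ± 0.19 between brain and heart (limma adjusted p = 2.95e-07 and 8.93e-06). Rnaseh2b, a subunit of the enzyme that removes RNA from RNA-DNA hybrids, was higher in liver than in brain by 0.53 ± 0.09 and than in heart by 0.69 ± 0.09 (adjusted p = 0.000166 and 9.96e-06).

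Aim2, an inflammasome sensor of DNA, was higher in liver than in brain by 0.53 ± 0.10 and than in heart by 0.70 ± 0.10 (limma adjusted p = 0.000606 and 3.72e-05). Tbk1, the kinase downstream of Sting1, was higher in liver by 0.66 ± 0.10 than in brain and 0.38 ± 0.10 than in heart (adjusted p = 4.86e-05 and 0.00677), and without liver arrays 1, 3 and 4 the difference from heart was 0.38 and was not called (adjusted p = 0.0776). Oas2, which makes the signal that activates RNase L, ranged from 5.91 to 6.36 in liver, 6.50 to 6.76 in brain and 7.45 to 8.12 in heart, and was lower in liver than in heart by 1.54 (log2 difference -1.54 ± 0.11, adjusted p = 8.36e-09). Its relative Oas1a was higher in brain than in heart by 0.89 ± 0.17 (adjusted p = 0.00100).

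Apoptotic DNA fragmentation genes showed 0 calls of 5 between liver and brain (1 at an unadjusted p under 0.05), and 2 were higher in liver than in heart. These were Aifm1, a mitochondrial protein that moves to the nucleus in dying cells (0.53 ± 0.10, limma adjusted p = 0.000386), and Endog, a mitochondrial nuclease (0.33 ± 0.10, adjusted p = 0.0199). With 2 and 5 as the only liver arrays, the Aifm1 difference was 0.44 (adjusted p = 0.0352) and the Endog difference 0.32 was not called (adjusted p = 0.130).

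**Figure D5:**
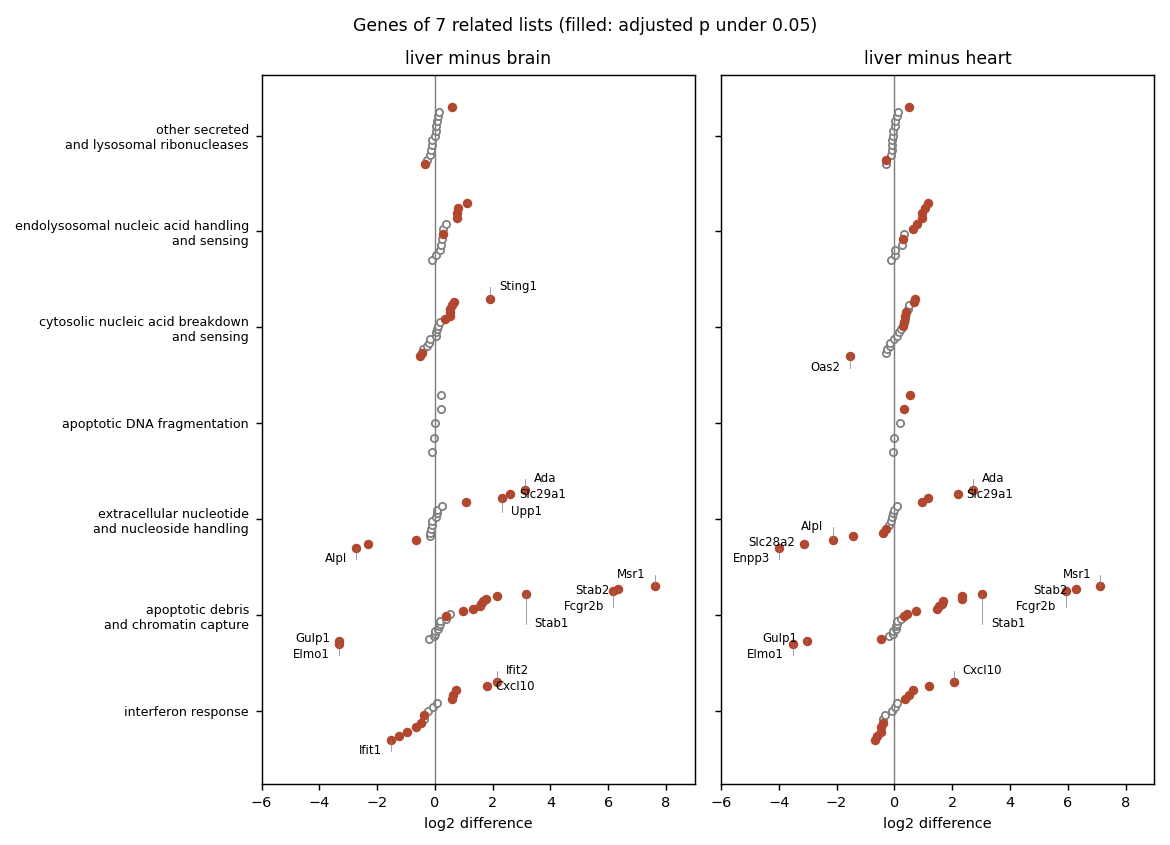
Log2 differences of the measured genes of 7 related lists in liver minus brain and liver minus heart, filled at adjusted p under 0.05, with named genes past 1.4 labelled. Msr1, Stab2 and Fcgr2b lie beyond 5.9 in both panels, and most genes of the other lists lie within 1 unit of 0.

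Of 16 measured genes that handle nucleotides and nucleosides outside cells, 4 were higher and 3 lower in liver than in brain, and 4 were higher and 6 lower in liver than in heart. On leaving out liver arrays 1, 3 and 4, 6 of the 7 calls against brain and 8 of the 10 against heart were kept. Ada, which deaminates adenosine, ranged from 9.0 to 10.07 in liver, 6.13 to 7.02 in brain and 6.35 to 8.26 in heart. Liver was above the other tissues by 3.13 ± 0.32 and 2.70 ± 0.32 (limma adjusted p = 4.48e-07 and 3.32e-06). The nucleoside carrier Slc29a1 was higher in liver by 2.61 ± 0.13 than in brain and 2.18 ± 0.13 than in heart (adjusted p = 1.93e-11 and 3.53e-10), and Upp1, a uridine phosphorylase, by 2.32 ± 0.17 and 0.94 ± 0.17 (adjusted p = 7.40e-09 and 0.000409).

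Alpl, an alkaline phosphatase at the cell surface, ran the other way, with 5.71 to 6.13 in liver, 8.26 to 9.26 in brain and 7.59 to 8.52 in heart. It was lower in liver by 2.74 than in brain and 2.14 than in heart (log2 differences -2.74 ± 0.18 and -2.14 ± 0.18, limma adjusted p = 1.71e-09 and 6.86e-08). The nucleotide-splitting ectoenzyme Enpp3 and the nucleoside carrier Slc28a2 were highest in heart. Enpp3 was lower in liver than in heart (-3.98 ± 0.18, adjusted p = 1.32e-11), and so was Slc28a2 (-3.14 ± 0.09, adjusted p = 1.64e-14). Both had liver and brain means under the floor of 5.64, so these differences compare heart with the array's lower end. Markers of cardiomyocytes and fibroblasts were also highest in heart, and their part in these differences was not tested.

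Of 24 genes for capture of apoptotic debris and chromatin, 12 were higher and 2 lower in liver than in brain, 13 higher and 3 lower in liver than in heart (all genes: 14% and 11.1%, 16.3% and 11.5%), and 1 higher and 2 lower in brain than in heart. Without liver arrays 1, 3 and 4, 11 of the 14 calls against brain and 12 of the 16 against heart were kept. C1qa, C1qb, C1qc and Timd4 of this list also stand among the macrophage markers, and Stab1, Stab2 and Fcgr2b among the sinusoidal markers. The scavenger receptor Msr1 ranged from 10.87 to 11.29 in liver, 3.40 to 3.74 in brain and 3.95 to 4.14 in heart, and was higher in liver by 7.61 ± 0.09 and 7.12 ± 0.09 (limma adjusted p = 1.42e-19 and 4.27e-19). The brain and heart means of Msr1 and Fcgr2b, and the liver means of Elmo1 and Gulp1, lay under the floor, so the sizes of their differences are set against the array's lower end.

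Stab2, which takes up hyaluronan and debris, was higher in liver by 6.35 ± 0.07 than in brain and 6.30 ± 0.07 than in heart (limma adjusted p = 1.27e-19 and 1.44e-19). Fcgr2b, an Fc receptor that takes up immune complexes, was higher by 6.16 ± 0.08 and 5.92 ± 0.08 (adjusted p = 6.83e-19 and 1.00e-18), and Stab1 by 3.14 ± 0.11 and 3.04 ± 0.11 (adjusted p = 3.74e-13 and 1.06e-12). When liver arrays 1, 3 and 4 were left out, these were 6.35 and 6.30 for Stab2, 6.17 and 5.93 for Fcgr2b, and 3.14 and 3.04 for Stab1. The engulfment adaptors Elmo1 and Gulp1 were lower in liver than in brain, by 3.31 and 3.30, and than in heart, by 3.52 and 3.04 (Elmo1: log2 differences -3.31 ± 0.21 and -3.52 ± 0.21; Gulp1: -3.30 ± 0.11 and -3.04 ± 0.11; adjusted p at most 9.95e-10).

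Interferon response genes went both ways. Of 15 measured, 5 were higher and 6 lower in liver than in brain, 5 higher and 5 lower in liver than in heart, and 5 higher and 2 lower in brain than in heart. The list's mean was 6.87 to 7.25 in liver, 7.0 to 7.07 in brain and 6.88 to 7.03 in heart. With 2 and 5 as the only liver arrays, 7 of the 11 calls against brain and 6 of the 10 against heart were kept. Ifit2, an RNA-binding effector, was higher in liver than in brain by 2.14 ± 0.11 and Ifit3 by 0.60 ± 0.13, whereas Ifit1 was lower by 1.54 (-1.54 ± 0.14), the deconjugating enzyme Usp18 by 1.23 (-1.23 ± 0.13) and Oasl2 by 0.65 (-0.65 ± 0.12), with limma adjusted p of 4.90e-11, 0.00190, 9.95e-08, 5.13e-07 and 0.000336 in that order. The chemokine Cxcl10 spread widely in liver, from 7.05 to 9.96, against 6.24 to 6.82 in brain and 5.91 to 6.56 in heart, and was higher in liver by 1.80 ± 0.37 and 2.06 ± 0.37 (adjusted p = 0.00116 and 0.000353).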

How the data were processed

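The authors deposited log2 values of 35556 probe sets on 15 arrays, made with RMA (background correction, quantile normalization and a summary per probe set) in Affymetrix Power Tools, per the submitters' processing notes. For versions and the array's genome build the sources used here give nothing. RMA evens out the arrays' distributions and compresses large differences, so folds here are powers of 2 of log2 differences and likely understate RNA ratios. Array medians lay between 5.98 and 6.11, and 5 arrays per tissue limit the precision.

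GEO's platform annotation gave 21789 probe sets 1 symbol and 1621 several, and 12146 are unnamed here. Keeping the highest-mean single-symbol probe set of each gene left 19938 genes. Tissue means were fitted to all arrays with limma 3.58.1 in R 4.3.3 (lmFit and eBayes, degrees of freedom 12 residual and 4.75 prior). Adjustment was by Benjamini-Hochberg over all genes within a contrast at a threshold of 0.05, and the procedure was tested on simulated data. Errors are SD over arrays, or the model's SE for differences.

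The members and lists were chosen with earlier results of these data known. Named were all members and, of each list, the 6 genes with the largest pairwise difference among those called in any contrast. Nothing in the labels ties equal replicate numbers across tissues. Alternatives covered the probe sets used, a filter on low values, array scaling, the spread model, array weights, the replicate number and arrays left out; leaving out liver arrays 1, 3 and 4 was added after seeing the data. Sequences are from RefSeq (GRCm38.p6).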

Additional observations from a re-analysis of the deposited data

Results flagged for a closer look

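Within each tissue, a highest or lowest array was marked when its gap to the nearest other array, divided by the range of the 5 arrays, was above 0.71 (Dixon's 95% value). This marked 9 of 144 groups, or 6.25%, and chance marks about 1 in 20. Among the nucleases, Dnase2b was high on liver array 2 (5.04), Dnase1 was high on heart array 3 (5.60, where the other 4 heart arrays shared one value), and Trex1 was low on heart array 3 (6.25). Among related genes, Msr1 was low on liver array 1 (10.87), Rnaseh2b was low on liver array 4 (6.68) and on brain array 5 (6.39), Aifm1 was high on heart array 3 (7.83) and Ada was high on heart array 1 (8.26). The mean of the hepatocyte markers was high on liver array 5 (7.46).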

How the results depend on the processing

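Among the measured members, no tested call changed direction in any of 26 alternatives. The related genes were followed by name only without liver arrays 1, 3 and 4, where Acp5 changed sign against brain, as given above. The members called, of 7, were 2 in liver minus brain, 1 in liver minus heart and 2 in brain minus heart. With all probe sets in the fit, 1 was called in liver minus brain and 1 in brain minus heart, and 467 and 297 features were enriched in brain and heart, against 311 and 181 genes. The filter on low values and median centring each gave 2 in liver minus heart. Pan-endothelial centring gave 0 in liver minus heart (2 at an unadjusted p under 0.05 in limma) and 0 in brain minus heart (0 unadjusted), with 4865 of all genes called in brain minus heart against 3070. Repeated quantile normalization and array weights each gave 1 in brain minus heart. With the replicate block, 1 was called in liver minus brain and 2 in liver minus heart. Among all genes the block raised the calls to 5282 from 5003 in liver minus brain and to 5936 from 5538 in liver minus heart. In brain minus heart they rose to 3369 from 3070. Samples of equal number deviated together at r = -0.000530 to 0.204, over 0.1 in 6 of 15 pairs. Samples of unequal number in different tissues gave r = -0.167 to 0.126. The labels do not tie the numbers across tissues, so the main fit did not pair samples by them. Whether samples of equal number share a batch was not tested. Without heart arrays 1 and 3, 1, 0 and 0 were called in liver minus brain, liver minus heart and brain minus heart, and without liver arrays 1, 3 and 4, chosen after seeing the data, 1, 0 and 1, with 2 in each at unadjusted p where 0 were called and 3285 of all genes called in liver minus heart against 5538. Leaving out 1 array gave 1 to 2, 1 to 2 and 0 to 2. Dnase1l3 lay 7.17 to 7.42 above brain and 7.25 to 7.50 above heart throughout. Cause of these moves was not tested. Signals near the floor limit Dnase1, Dnase2b and Dnase1l2, and in heart also Dnase2a and the probe set shared by Rnase4 and Ang.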
